A study of Homo sapiens with 12 samples.

Results

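The aminoacyl-tRNA synthetases are the enzymes that join each amino acid to its tRNA, and their mRNAs were followed here in 12 RNA-seq libraries of K1 and TPC-1, established lines from human papillary thyroid cancer. The members were chosen by gene symbol alone: a single amino-acid letter followed by ARS1 or ARS2, plus EPRS1, FARSA and FARSB. This took 37 of the 61806 genes measured, of which 20 encode cytosolic enzymes (names ending in 1, FARSA and FARSB) and 17 encode mitochondrial enzymes (names ending in 2). The groups were K1 with TRIM35 siRNA, K1 with a negative control siRNA, TPC-1 with TRIM35 siRNA and TPC-1 with the negative control siRNA, with 3 libraries each. Cells were harvested 24 h after transfection, the labels call the control cells wild type, and TRIM35 belongs to the tripartite motif proteins, many of which are ubiquitin ligases. Each line is a single established tumour line, so a difference between K1 and TPC-1 is a difference between those lines and not between patients or tumour types. Nothing in the labels says whether the 3 libraries of a group came from separate cultures, so the p-values rest on a spread that may be technical.

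Each synthetase recognises its amino acid and the matching tRNAs and couples them at the cost of ATP, and the charged tRNA then delivers the amino acid to the ribosome. Cytosolic and mitochondrial translation mostly use separate synthetases, both encoded in the nucleus; the lysine enzyme KARS1 and the glycine enzyme GARS1 are exceptions, because each single gene supplies both compartments. EPRS1 carries the glutamate and the proline enzyme in a single protein, and FARSA and FARSB are the subunits of the cytosolic phenylalanine enzyme. Mitochondria charge the glutamine tRNA indirectly, through the glutamate enzyme EARS2 and an amidotransferase. When amino acids run short, the kinase GCN2 phosphorylates eIF2 and the transcription factor ATF4 is translated, and many cytosolic synthetase genes are known ATF4 targets. Synthetases are needed in every cell type and do not mark thyroid cells.

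Library totals lay between 16705044 and 22928861 counts, and between 22526 and 28045 genes had a count. All 37 members passed the filter on low counts, which left 17447 genes. TRIM35 mRNA had 1.20, 1.49 and 1.53 FPKM under TRIM35 siRNA and 1.51, 1.85 and 1.47 FPKM under control siRNA in K1, and 2.34, 2.56 and 2.58 FPKM under TRIM35 siRNA and 2.86, 2.91 and 3.06 FPKM under control siRNA in TPC-1. Its level under TRIM35 siRNA was 87.9% of control in K1 (95% interval 68.5% to 113%) and 84.8% in TPC-1 (66.8% to 108%), and neither line passed the test. Thyroid and epithelial markers, a list that includes general keratins, summed to between 185 and 200 FPKM in K1 and between 64.3 and 73.4 FPKM in TPC-1. Of the 14 listed, 6 reached a mean of 1 FPKM in K1 and 5 in TPC-1. The thyroid factor NKX2-1 had no count in either line, and the iodide transporter SLC5A5 and the cadherin CDH1 had none in TPC-1. Fibroblast markers summed to at most 9.53 FPKM in K1 and 2.55 FPKM in TPC-1, and leukocyte markers to at most 6.17 FPKM in K1 and 0.75 FPKM in TPC-1; their part in any result here was not tested.

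K1 expressed the cytosolic synthetases at about a 2-fold lower level than TPC-1. In the control libraries the 20 cytosolic mRNAs held 0.274%, 0.268% and 0.268% of all counts in K1, against 0.520%, 0.609% and 0.615% in TPC-1. The 17 mitochondrial mRNAs held 0.0581%, 0.0591% and 0.0581% of counts in K1, against 0.0808%, 0.0849% and 0.0852% in TPC-1. The ranges of the lines did not overlap for either class. On FPKM, which divides counts by gene size and library total, the cytosolic enzymes summed to 464 ± 13.4 in K1 and 941 ± 65.2 in TPC-1 (SD, n = 3 each), and the mitochondrial enzymes to 107 ± 2.81 in K1 and 164 ± 4.71 in TPC-1. The ratio of cytosolic to mitochondrial summed FPKM was therefore 4.34 ± 0.10 in K1 and 5.73 ± 0.25 in TPC-1. A single gene, IARS2, made up 40.1 FPKM of the mitochondrial sum in K1 and 84.3 FPKM in TPC-1. The mitochondrial sums and the ratio therefore depend heavily on this gene and do not describe most members of the class. These are bulk libraries scaled to their own totals, so fewer cells expressing a gene and less of its RNA per cell cannot be told apart.

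**Figure D1:**
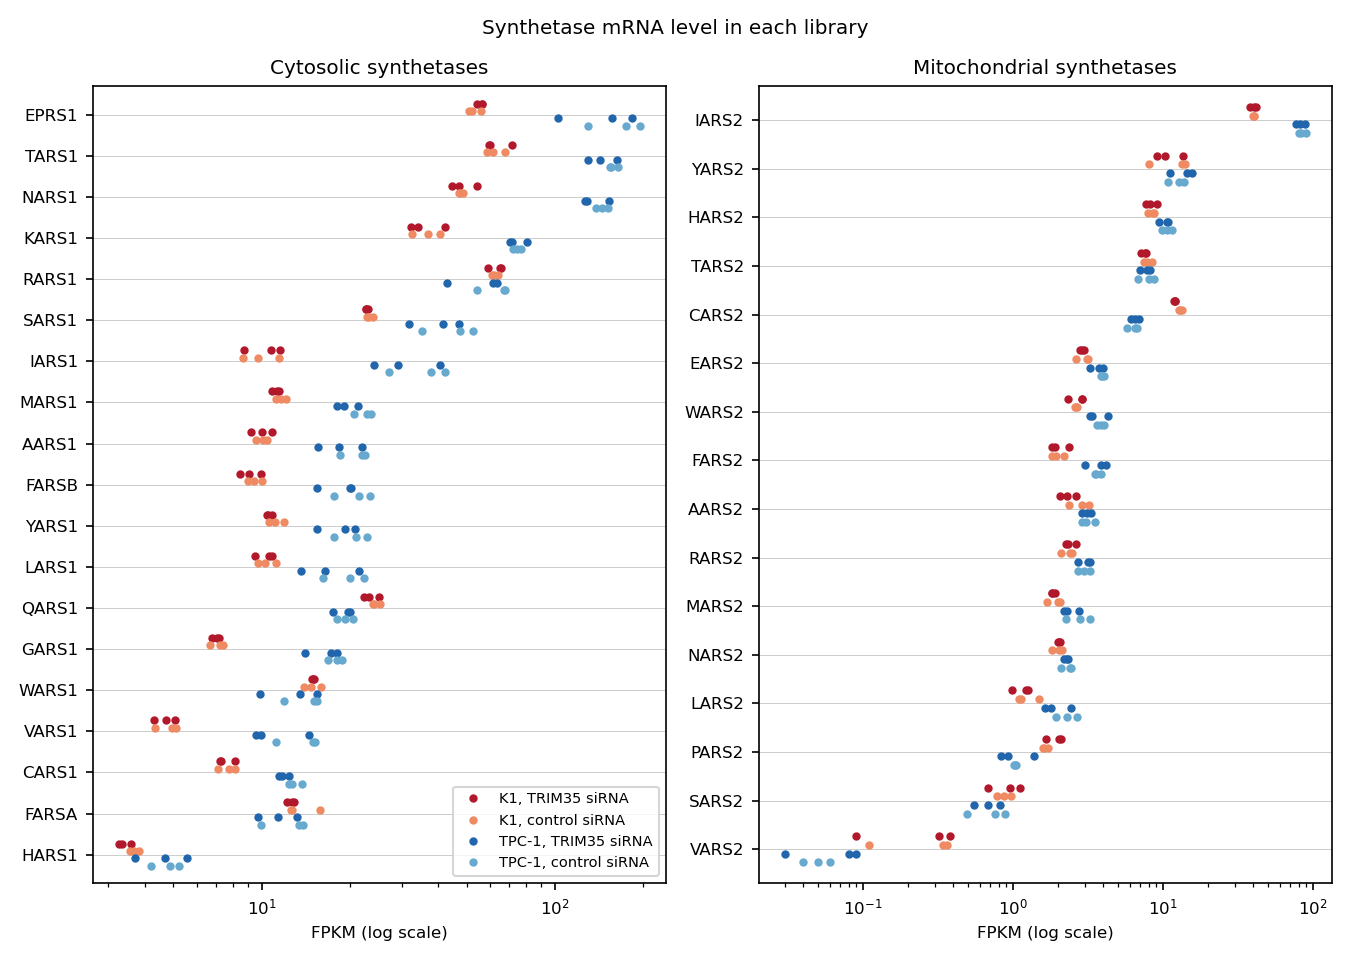
FPKM of each synthetase on a log scale, 1 point per library, with K1 above TPC-1 and TRIM35 siRNA above control siRNA within each gene; genes are ordered by their mean in the TPC-1 control libraries. Most cytosolic genes show the K1 points left of the TPC-1 points, while RARS1, WARS1 and FARSA overlap. The K1 points of QARS1, CARS2 and PARS2 lie to the right. Those of VARS2 lie mostly to the right, with the lowest K1 point, at 0.09 FPKM, level with the highest TPC-1 point.

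The order of the levels also differed between the lines. The highest mean FPKM values in K1 control libraries belonged to TARS1 (62.7 ± 4.6), RARS1 (62.3 ± 1.5) and EPRS1 (53.1 ± 2.5), and in TPC-1 control libraries to EPRS1 (167 ± 34), TARS1 (158 ± 5.6) and NARS1 (145 ± 6.8; SD, n = 3 each). TARS1 and RARS1 overlapped in K1, and EPRS1 and TARS1 overlapped in TPC-1, so their order is not settled by these libraries. Of the 36 neighbouring pairs in the order, 22 overlapped in K1 and 23 in TPC-1. On the deposited gene sizes IARS2, the isoleucine enzyme of mitochondria, had the highest FPKM of its class, with 40.1 ± 0.36 FPKM in K1 and 84.3 ± 4.9 FPKM in TPC-1. At the low end, SARS2 had 0.87 ± 0.095 FPKM in K1 and 0.71 ± 0.20 FPKM in TPC-1, and VARS2 had 0.27 ± 0.14 FPKM in K1 and 0.05 ± 0.01 FPKM in TPC-1. The deposited gene sizes run from 2147 bases (YARS2) to 22418 bases (IARS1) and are 0.987 to 9.70 times the main protein-coding transcript, which changes the order between genes but not a comparison of the same gene between libraries. On the transcript's length, an alternative added after the data were seen, IARS1 had rank 3 in TPC-1 control libraries, behind NARS1 and EPRS1, and RARS1 had rank 1 in K1. On that scale the mitochondrial CARS2 lay above IARS2 in K1, at 72.6 ± 1.8 against 46.5 ± 0.42 FPKM, and below it in TPC-1, at 35.1 ± 2.7 against 98.0 ± 5.7 FPKM.

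Between the control libraries of the lines, 16 of 20 cytosolic synthetases were called lower in K1 and 0 higher, where called means an adjusted p under 0.05 by edgeR's quasi-likelihood test with Benjamini-Hochberg adjustment over all genes. The lines differ widely: 67.9% of all genes tested were called, 32.1% lower and 35.8% higher in K1. Of the genes at a mean of 5 FPKM or more, 70.1% were called, 45.1% lower and 25.1% higher. Every list count given below for the control libraries stands beside these shares. The cytosolic synthetases had a median log2 fold change (K1 over TPC-1) of -1.04, beside 0.06 over all genes tested and -0.26 over those at 5 FPKM or more. The share of cytosolic members called lower, 80.0%, thus stood above both backgrounds, while the share called in either direction did not stand far from them.

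IARS1, the isoleucine enzyme (hg38, chr9:92210207-92293854, minus strand), had the largest fold change of the cytosolic genes. It had 8.65, 9.68 and 11.4 FPKM in K1 control libraries, against 27.2, 37.7 and 42.0 FPKM in TPC-1 control libraries. Every K1 value lay below every TPC-1 value, and K1 reached 25.9% of TPC-1 (a log2 fold change of -1.95, SE 0.20, 95% interval of the level 19.3% to 34.8%, adjusted p = 4.10e-07). EPRS1, which charges the tRNAs of glutamate and proline, had 52.3, 51.0 and 55.9 FPKM in K1, against 129, 175 and 195 FPKM in TPC-1. The 3 K1 libraries were tightly grouped and the TPC-1 libraries spread widely, with library 1 well below the rest (log2 fold change -1.75, SE 0.20, adjusted p = 1.65e-06). NARS1, the asparagine enzyme, had 47.4, 48.8 and 47.2 FPKM in K1, against 151, 145 and 138 FPKM in TPC-1. Here both lines were tight and far apart, with K1 at 30.9% of the TPC-1 level (25.0% to 38.2%; adjusted p = 4.37e-08).

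VARS1, the valine enzyme, had 5.10, 4.33 and 4.96 FPKM in K1, against 11.2, 14.9 and 15.2 FPKM in TPC-1 (log2 fold change -1.62). TARS1, the threonine enzyme, had 67.8, 61.4 and 58.9 FPKM in K1, against 155, 164 and 154 FPKM in TPC-1. GARS1, the glycine enzyme of both compartments, had 7.39, 7.22 and 6.68 FPKM in K1, against 16.8, 18.8 and 18.0 FPKM in TPC-1. For all 3 the lines did not overlap, and TARS1 and GARS1 had the same fold change, -1.43. KARS1, the lysine enzyme that also serves both compartments, had 40.6, 37.1 and 32.4 FPKM in K1, against 74.1, 76.7 and 71.9 FPKM in TPC-1 (log2 fold change -1.11, SE 0.16). Other called cytosolic genes were FARSB (-1.23), AARS1 (-1.16), SARS1 (-1.05), MARS1 (-1.04), LARS1 (-1.01), YARS1 (-0.97), CARS1 (-0.85) and HARS1 (-0.46). MARS1 shares 982 bases with DDIT3 on the opposite strand, and whether the counting used strand is not given in the sources used here; DDIT3 itself was not called (-0.15). In all, 22 of the 37 members overlap a gene on the opposite strand in the deposited coordinates, and their counts are uncertain to that extent. Among them are YARS2 with DNM1L (18161 bases), GARS1 with GARS1-DT (14754 bases) and CARS2 with ING1 (868 bases). EARS2 shares 1242 bases with GGA2 and HARS2 shares 626 bases with ZMAT2 on the same strand, where strand would not separate the reads.

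The 4 cytosolic genes without a call were RARS1, WARS1, FARSA and QARS1. WARS1, the tryptophan enzyme, which interferon gamma is known to induce, had 16.0, 14.0 and 14.7 FPKM in K1, against 11.9, 15.5 and 15.1 FPKM in TPC-1. Its groups overlapped, its fold change was -0.02 (0.01 with RLE scaling), and the 95% interval of the K1 level ran from 77.3% to 126% of TPC-1. RARS1, the arginine enzyme, lay at -0.11 (interval 73.8% to 116%) and FARSA, a phenylalanine subunit, at 0.05 (80.6% to 132%), while the other subunit, FARSB, was called lower. QARS1, the glutamine enzyme, had 25.3, 23.9 and 24.1 FPKM in K1, against 18.0, 20.4 and 19.3 FPKM in TPC-1. Its K1 values all lay above the TPC-1 values without reaching the threshold (log2 fold change 0.25, adjusted p = 0.0784); it was called higher under 7 of 21 alternatives, one of them leaving out K1 TRIM35 siRNA library 3 (0.25, adjusted p = 0.0404). The interferon gamma list, chosen for WARS1, had 9 of 13 members tested, with 5 higher in K1 and 1 lower, among them the guanylate-binding protein GBP2 at 3.80, the transporter TAP1 at 1.25 and the regulator IRF1 at 1.16, and GBP1 at -0.50.

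**Figure D2:**
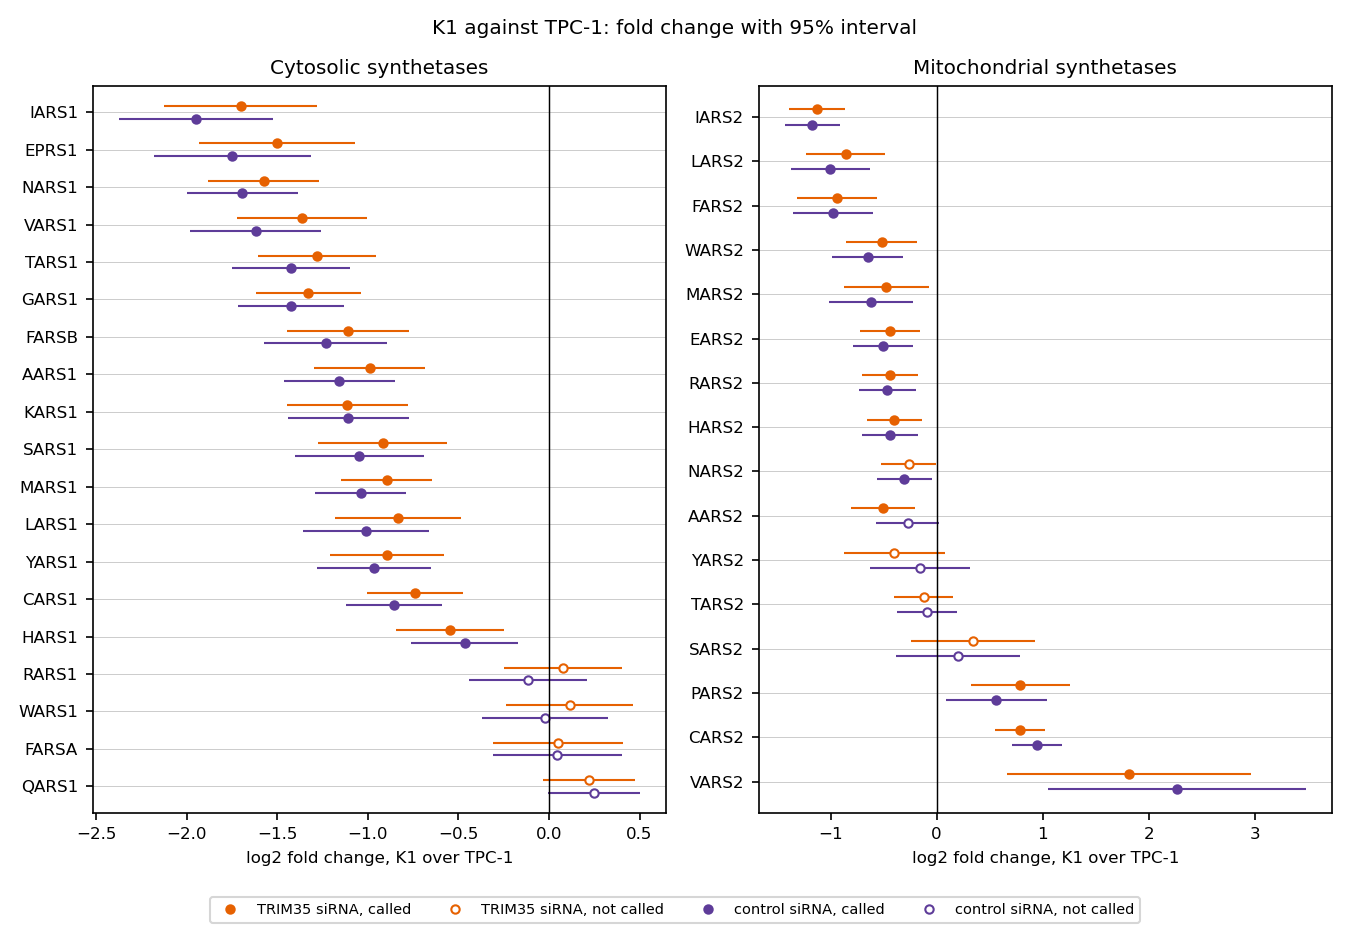
Log2 fold change of K1 over TPC-1 for each synthetase, with 95% intervals, under TRIM35 siRNA (orange, upper) and under control siRNA (purple, lower); filled points were called and open points were not. The cytosolic points run from -1.95 to 0.25 and the mitochondrial points from -1.17 to 2.27, and the comparisons, which share no library, give similar values gene by gene.

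Several cytosolic synthetases sit together in the multisynthetase complex, a large assembly held by the scaffold proteins AIMP1, AIMP2 and EEF1E1. Of its 8 enzyme genes, 6 were lower in K1, among them IARS1, EPRS1, KARS1, MARS1 and LARS1 (median -1.02), and the 2 not called were RARS1 and QARS1. Of the scaffolds, EEF1E1 had 15.6, 14.9 and 12.6 FPKM in K1, against 36.65, 36.44 and 29.05 FPKM in TPC-1 (log2 fold change -1.34). AIMP2 had 5.49, 4.84 and 5.01 FPKM in K1, against 8.12, 12.8 and 9.97 FPKM in TPC-1 (-1.11). AIMP1 did not pass (-0.27, adjusted p = 0.0523). By the structural classes of the catalytic domain, 7 of 10 class I genes and 9 of 10 class II genes were lower, counting EPRS1 in class I. All cytosolic genes together had 16 of 20 lower (80.0%, median -1.04), beside 32.1% of all genes tested. The complex thus lay near its own class, and a difference between these subsets was not tested.

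Of the 13 cytosolic synthetases that the literature links to ATF4, 12 were called lower in K1 (median -1.16), all but WARS1. Of the other 7 cytosolic genes, 4 were called lower (median -0.46); whether these lists differ was not tested. The wider ATF4 stress response moved in both directions. Of its 24 genes, 15 were lower and 6 higher, with a median of -0.61. The amino acid transporter SLC7A5 (-4.62), the serine synthesis enzyme PSAT1 (-4.19) and the stress regulator NUPR1 (-7.52, with 3 to 12 counts in K1) were lower, and the secreted glycoprotein STC2 (4.57) was higher. ATF4 mRNA had 200, 182 and 154 FPKM in K1, against 241, 212 and 185 FPKM in TPC-1. Those ranges overlapped and the fold change of -0.34 was not called (adjusted p = 0.102); ATF4 is controlled largely at translation, which these data do not measure. Of the eIF2 kinases, EIF2AK3 was higher (1.68), EIF2AK1 (-0.31) and EIF2AK2 (-0.38) lower, and EIF2AK4, which encodes GCN2, lay at -0.28 without a call.

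The C/EBP-ATF response element, at which ATF4 binds with a C/EBP partner, has the core TGATGNAA, and it was searched on both strands of RefSeq promoter windows (GRCh38.p14, 250 bases before to 50 after a gene start). A window was given for 30 of the 37 members. The core was present for 7 of 16 cytosolic genes (43.8%), for 1 of 14 mitochondrial genes (7.14%) and for 4.46% of all genes with a window; TTGCATCA and TTTCATCA below are the core read on the other strand. The windows that hold it are shown because these 7 cytosolic genes were all among those lower in K1. Each stretch is written along the gene's own strand with the core in capitals.

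TARS1 (chr5:33440937-33441004, plus strand): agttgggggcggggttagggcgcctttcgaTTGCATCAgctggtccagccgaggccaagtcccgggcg
GARS1 (chr7:30594815-30594882, plus strand): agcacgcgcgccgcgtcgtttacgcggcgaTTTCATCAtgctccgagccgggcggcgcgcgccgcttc
IARS1 (chr9:92293673-92293740, minus strand): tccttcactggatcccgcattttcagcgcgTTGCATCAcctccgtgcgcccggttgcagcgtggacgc
CARS1 (chr11:3057388-3057455, minus strand): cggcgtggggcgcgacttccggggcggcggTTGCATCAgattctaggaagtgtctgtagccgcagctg
MARS1 (chr12:57488034-57488101, plus strand): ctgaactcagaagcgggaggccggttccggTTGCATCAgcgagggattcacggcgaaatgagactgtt
AARS1 (chr16:70289656-70289723, minus strand): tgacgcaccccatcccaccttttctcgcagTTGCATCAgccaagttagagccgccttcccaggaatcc
NARS1 (chr18:57621787-57621852, minus strand): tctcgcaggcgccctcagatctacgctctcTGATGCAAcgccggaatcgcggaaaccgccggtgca
YARS2 (chr12:32756057-32756124, minus strand): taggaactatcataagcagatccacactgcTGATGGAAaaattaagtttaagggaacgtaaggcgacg

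The first base of the core lay close to the RefSeq start in 6 of these cytosolic genes. It was at 2 in TARS1, -2 in CARS1, -4 in MARS1, -13 in IARS1, 14 in NARS1 and -33 in GARS1. The core lay farther upstream of the RefSeq start in AARS1 (-187) and in the mitochondrial YARS2 (-197). In the deposited coordinates AARS1 reaches to base 70289707, so its core lies inside the gene there. TARS1, GARS1 and CARS1 each also had a further window without the core. The 7 cytosolic genes with a core had a median log2 fold change of -1.43 in K1 and ran from -1.95 to -0.85. The 9 with a window and no core had a median of -0.46, and 5 of them were called lower. The 4 with no window given were all called lower, with a median of -0.99. Whether the core goes with the change was not tested. EPRS1, at -1.75, is among the genes with no core in the window. These letters are a description of the windows and not a measurement of binding.

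Mitochondrial synthetases were divided. In the control libraries 10 of 17 were lower in K1 (58.8%), 3 were higher (17.6%) and 4 were not called, with a median of -0.44. Over all genes tested 32.1% were lower and 35.8% higher, and at a mean of 5 FPKM or more 45.1% and 25.1%. IARS2 had 40.2, 39.7 and 40.4 FPKM in K1, against 80.1, 83.3 and 89.7 FPKM in TPC-1 (-1.17). LARS2, the leucine enzyme, had 1.09, 1.13 and 1.48 FPKM in K1, against 1.92, 2.28 and 2.68 FPKM in TPC-1 (-1.0). Neither overlapped between lines.

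FARS2, the phenylalanine enzyme, lay at -0.98, with 2.17, 1.94 and 1.81 FPKM in K1, against 3.56, 3.88 and 3.50 FPKM in TPC-1. WARS2, for tryptophan, had 2.58, 2.65 and 2.63 FPKM in K1, against 3.65, 4.03 and 3.86 FPKM in TPC-1 (-0.65). MARS2, for methionine, had 2.00, 2.04 and 1.68 FPKM in K1, against 3.24, 2.78 and 2.27 FPKM in TPC-1 (-0.62). All 3 were separate between lines and smaller in size than the leading cytosolic changes. EARS2 (-0.51), RARS2 (-0.46), HARS2 (-0.44) and NARS2 (-0.30) were also lower. The NARS2 groups overlapped, and its call was lost without TPC-1 control library 1 (-0.27) or 2 (-0.27), or K1 control library 2 (-0.30) or 3 (-0.22). AARS2 (-0.27), YARS2 (-0.16), TARS2 (-0.09) and SARS2 (0.20) were not called.

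CARS2, the mitochondrial cysteine enzyme, was higher in K1, with 12.8, 13.4 and 13.0 FPKM, against 6.67, 6.54 and 5.77 FPKM in TPC-1. K1 reached 193% of TPC-1 (a log2 fold change of 0.95, SE 0.11, 95% interval of the level 164% to 228%, adjusted p = 1.75e-06), and the groups were far apart. PARS2, for proline, had 1.70, 1.59 and 1.60 FPKM in K1, against 1.03, 1.02 and 1.05 FPKM in TPC-1. Its groups were separate, but at this depth the call was narrow (0.56, adjusted p = 0.0354): it was lost without TPC-1 control library 1 (0.57), 2 (0.55) or 3 (0.57), and without K1 control library 1 (0.50), 2 (0.59) or 3 (0.60). VARS2, for valine, had 17, 49 and 39 counts in K1 and 7, 6 and 5 counts in TPC-1, so its fold change is poorly bounded (2.27, 95% interval 1.05 to 3.48, adjusted p = 0.00242). VARS2 shares all 12255 bases of its span with a second gene model on the same strand, which had at most 14 counts; how reads were divided between them is not given in the sources used here, so its level is uncertain.

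Other genes of mitochondrial translation had a median close to that of the mitochondrial synthetases. Of 13 mitochondrial translation factors, 9 were lower and 2 higher in K1 (median -0.46), among them the recycling factor MRRF (-1.21), the elongation factor GFM1 (-0.78) and the release factor MTRF1 (0.88). QRSL1 (-0.84) and GATB (-0.76), subunits of the amidotransferase that makes glutamine on its tRNA, were lower, and GATC was not called (-0.20). Of 78 mitochondrial ribosomal protein genes, 77 were tested, with 38 lower, 5 higher and a median of -0.46. Among all genes tested 32.1% were lower and 35.8% higher. Among those at a mean of 5 FPKM or more 45.1% were lower and 25.1% higher, with a median of -0.26. The counts lower in this paragraph are to be read beside those shares, and a difference from them was not tested. Cytosolic elongation factors had 3 of 6 lower and 0 higher, namely EEF1A1 (-0.63), EEF1D (-0.61) and EEF1A2 (-9.77), which had only 1 to 6 counts in the K1 libraries. The tRNA exporter XPOT (-0.59) and the proofreading enzyme DTD2 (-1.96) were lower, and DTD1 (0.92) and the synthetase paralogue TARS3 (0.91) were higher. All 8 cell cycle reference genes were lower in K1 (median -2.51, CCNA2 at -3.30), a far larger shift than that of either synthetase class; its part in the synthetase levels was not tested.

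Compared amino acid by amino acid, the cytosolic enzyme had the lower fold change in 14 of 18 pairs, with a median difference (cytosolic minus mitochondrial log2 fold change) of -0.79. EPRS1 and FARS2 each stand in 2 of these pairs, so they are not independent. For cysteine, valine and proline the enzymes were called in opposite directions: CARS1 at -0.85 with CARS2 at 0.95, VARS1 at -1.62 with VARS2 at 2.27, and EPRS1 at -1.75 with PARS2 at 0.56. The valine and proline contrasts are less certain. VARS2 had only 5 to 7 counts in TPC-1 control libraries, and the PARS2 call was lost without any single control library. The FPKM ratio of CARS1 to CARS2 was 0.632, 0.575 and 0.546 in K1, against 1.898, 2.092 and 2.147 in TPC-1, so CARS2 was above CARS1 in K1 and below it in TPC-1. Among the other pairs, the mitochondrial enzyme had the lower fold change for arginine, for tryptophan and for FARSA with FARS2. For leucine the members differed by -0.01.

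**Figure D3:**
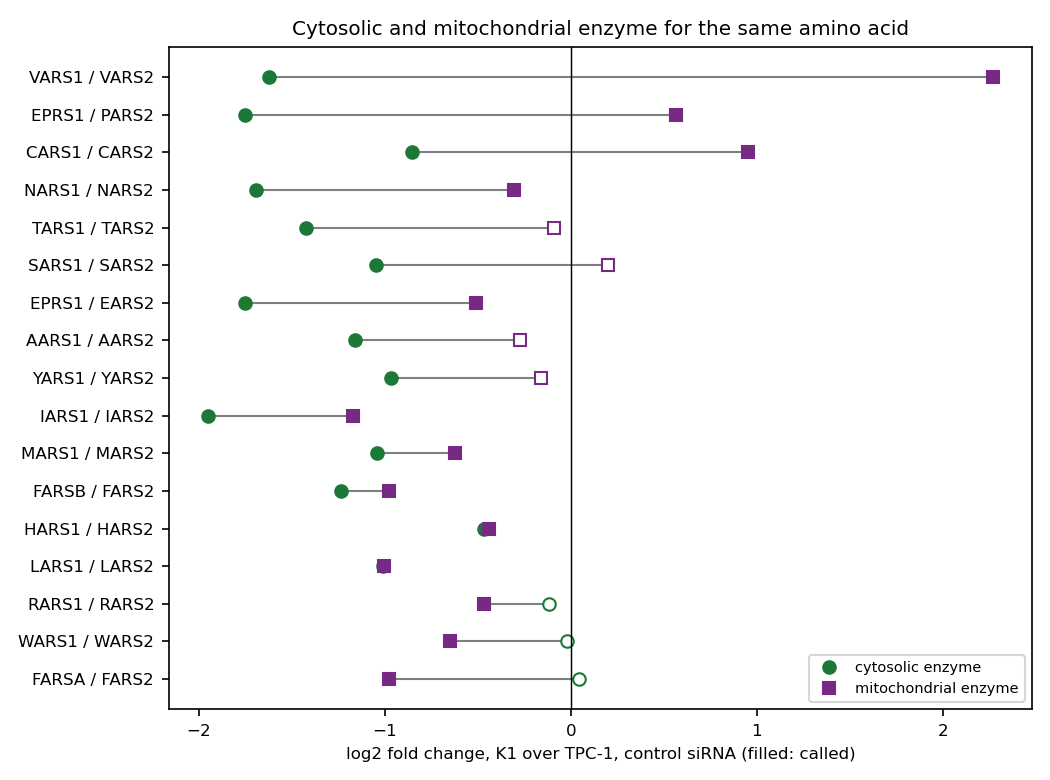
Log2 fold change of K1 over TPC-1 in control libraries for the cytosolic (green circle) and mitochondrial (purple square) enzyme of each amino acid, joined by a line; filled symbols were called, and glycine, lysine and glutamine have no pair under the naming rule. The green symbol lies left of the purple one in 14 of the 17 pairs drawn, by the widest margin for valine and proline, and right of it for FARSA with FARS2. VARS2 has few counts and the PARS2 call is narrow, so those margins are uncertain.

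For histidine the genes of the pair lie head to head on chromosome 5 and are divergently transcribed, and in the deposited gene models they share 108 bases. HARS1 had 3.68, 3.80 and 3.56 FPKM in K1, against 5.23, 4.86 and 4.18 FPKM in TPC-1 (-0.46). HARS2 had 7.97, 8.52 and 8.71 FPKM in K1, against 9.80, 11.5 and 10.6 FPKM in TPC-1 (-0.44). Both were lower in K1 by nearly the same amount, and reads in the shared bases cannot be told apart without strand. The RefSeq window of HARS2 also holds the HARS1 start. It is shown because a cytosolic and a mitochondrial synthetase both start within it, with the 84 bases between the 2 starts in capitals and HARS2 reading to the right.

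HARS2 (chr5:140691205-140691504, plus strand): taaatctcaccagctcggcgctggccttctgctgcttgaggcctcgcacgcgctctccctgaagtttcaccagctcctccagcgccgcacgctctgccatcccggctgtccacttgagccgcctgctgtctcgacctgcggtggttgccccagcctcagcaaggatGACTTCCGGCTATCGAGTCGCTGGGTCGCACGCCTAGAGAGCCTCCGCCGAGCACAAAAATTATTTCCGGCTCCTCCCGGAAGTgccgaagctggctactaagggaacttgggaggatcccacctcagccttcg

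Under TRIM35 siRNA, in libraries whose levels do not enter the control fold changes, K1 again had the lower cytosolic levels. Here 68.3% of all genes were called, 32.4% lower and 35.9% higher in K1; at a mean of 5 FPKM or more, 69.8% were called, 45.2% lower and 24.6% higher. The same 16 cytosolic genes were lower in K1 and 0 were higher (median -0.91). Of the mitochondrial genes 10 were lower and 3 higher (median -0.44); 9 of the lower and all 3 of the higher genes were called in both comparisons. NARS2 was called in the control libraries alone (-0.26 here, adjusted p = 0.0637) and AARS2 under TRIM35 siRNA alone (-0.51), without a detectable difference between the comparisons. IARS1 had 11.5, 10.7 and 8.71 FPKM in K1, against 24.2, 29.2 and 40.5 FPKM in TPC-1 (-1.70). NARS1 had 44.7, 47.0 and 54.1 FPKM in K1, against 128, 154 and 127 FPKM in TPC-1 (-1.58). EPRS1 had 56.6, 54.3 and 56.3 FPKM in K1, against 103, 157 and 184 FPKM in TPC-1 (-1.50). The lines were apart for all 3, and EPRS1 again spread widely within TPC-1. VARS1 had 4.73, 5.06 and 4.30 FPKM in K1, against 9.97, 9.53 and 14.4 FPKM in TPC-1 (-1.36). GARS1 had 6.75, 7.06 and 7.17 FPKM in K1, against 14.1, 17.3 and 18.0 FPKM in TPC-1 (-1.33). TARS1 had 59.4, 59.9 and 71.2 FPKM in K1, against 129, 163 and 143 FPKM in TPC-1 (-1.28). These 3 were separate between lines too, as was KARS1, with 32.2, 34.0 and 42.3 FPKM in K1, against 70.0, 80.2 and 71.3 FPKM in TPC-1 (-1.11). WARS1 had 15.0, 15.0 and 14.9 FPKM in K1, against 9.85, 13.5 and 15.4 FPKM in TPC-1, with overlap and no call (0.11).

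Among mitochondrial genes under TRIM35 siRNA, IARS2 had 38.0, 40.6 and 41.9 FPKM in K1, against 77.0, 81.7 and 88.6 FPKM in TPC-1 (-1.13). FARS2 had 1.9, 1.82 and 2.37 FPKM in K1, against 3.01, 3.83 and 4.15 FPKM in TPC-1 (-0.94). Both were separate between lines, in the same direction as in the control libraries. LARS2 had 1.26, 1.22 and 0.98 FPKM in K1, against 1.78, 1.63 and 2.45 FPKM in TPC-1 (-0.86). WARS2 had 2.34, 2.90 and 2.88 FPKM in K1, against 3.25, 3.35 and 4.29 FPKM in TPC-1 (-0.52). AARS2, the mitochondrial alanine enzyme, had 2.30, 2.64 and 2.05 FPKM in K1, against 3.32, 2.87 and 3.12 FPKM in TPC-1. Their K1 values also all lay below the TPC-1 values. CARS2, higher in K1, had 11.78, 11.97 and 12.03 FPKM there, against 6.91, 6.48 and 6.11 FPKM in TPC-1 (0.79). PARS2 had 2.10, 2.03 and 1.67 FPKM in K1, against 0.92, 0.83 and 1.38 FPKM in TPC-1 (0.79, adjusted p = 0.00493). VARS2 had 41, 44 and 11 counts in K1, against 10, 12 and 5 counts in TPC-1 (1.81). CARS2 and PARS2 did not overlap between lines, and VARS2 did in counts. Some smaller calls were lost when a library was left out. HARS2 (-0.40 with all libraries) was lost without K1 TRIM35 siRNA library 2 (-0.32), and WARS2 without K1 TRIM35 siRNA library 1 (-0.40). MARS2 (-0.47 with all libraries) was lost without TPC-1 TRIM35 siRNA library 2 (-0.35) or K1 TRIM35 siRNA library 1 (-0.43) or 2 (-0.44).

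TRIM35 siRNA against control siRNA gave no call for any synthetase. By edgeR 0 of 17447 genes were called in K1, in TPC-1 or for the difference between lines (0.0% each), and 0 synthetases had an unadjusted p under 0.05, beside 136, 337 and 301 of all genes. DESeq2 called 0, 2 and 2 genes, none of them a synthetase. In K1 the median log2 fold change (TRIM35 siRNA over control siRNA) was -0.01 for cytosolic and -0.03 for mitochondrial genes; in TPC-1 it was -0.14 and -0.02. For 36 of the 37 genes, all but VARS2, the 95% interval in each line stayed within a 2-fold change either way. TRIM35 mRNA itself was not called lower in either line, as given above. The intervals therefore describe the siRNA treatment, and the effect of a loss of TRIM35 was not tested. The cytosolic intervals together spanned 72.2% to 141% of control in K1 and 64.3% to 136% in TPC-1.

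Every synthetase had an adjusted p of 1.00 by edgeR in both lines. In TPC-1, 19 of 20 cytosolic genes lay below 0. Over all 17447 genes tested 8585 lay below 0, and 3294 of the 6427 at a mean of 5 FPKM or more. Many cytosolic genes moved together from library to library, as given below, so the 19 are not independent observations. VARS1, with the smallest p, had 9.97, 9.53 and 14.4 FPKM under TRIM35 siRNA, against 11.2, 14.9 and 15.2 FPKM under control siRNA (log2 fold change -0.29, SE 0.17). MARS1 had 18.1, 19.1 and 21.4 FPKM under TRIM35 siRNA, against 20.7, 22.9 and 23.6 FPKM under control (-0.20). AARS1 had 15.5, 18.3 and 22.0 FPKM under TRIM35 siRNA, against 18.5, 22.0 and 22.5 FPKM under control (-0.17). In all 3 the groups overlapped, and the first library was low in both groups, apart from VARS1 under TRIM35 siRNA, where the second was slightly lower. The mitochondrial genes with the smallest p were LARS2 (-0.23), MARS2 (-0.20) and EARS2 (-0.10). LARS2 had 1.78, 1.63 and 2.45 FPKM under TRIM35 siRNA, against 1.92, 2.28 and 2.68 FPKM under control. MARS2 had 2.28, 2.75 and 2.18 FPKM under TRIM35 siRNA, against 3.24, 2.78 and 2.27 FPKM under control. EARS2 had 3.28, 3.74 and 3.99 FPKM under TRIM35 siRNA, against 4.07, 3.83 and 3.92 FPKM under control. All 3 overlapped. Without TPC-1 libraries 1 of both groups, MARS2 lay at 0.012 and EARS2 at 0.039.

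In K1 the cytosolic genes with the smallest p were HARS1 (-0.12), FARSA (-0.11) and YARS1 (-0.07), and the mitochondrial ones AARS2 (-0.26), CARS2 (-0.13) and PARS2 (0.24). HARS1 had 3.57, 3.34 and 3.25 FPKM under TRIM35 siRNA, against 3.68, 3.80 and 3.56 FPKM under control. FARSA had 12.2, 12.9 and 12.7 FPKM under TRIM35 siRNA, against 15.8, 12.5 and 12.6 FPKM under control. YARS1 had 10.5, 10.4 and 10.8 FPKM under TRIM35 siRNA, against 11.9, 11.1 and 10.6 FPKM under control. In these 3 the groups overlapped, and control library 1 was the highest for FARSA and YARS1. AARS2 had 2.30, 2.64 and 2.05 FPKM under TRIM35 siRNA, against 2.35, 2.87 and 3.19 FPKM under control. CARS2 had 11.78, 11.97 and 12.03 FPKM under TRIM35 siRNA, against 12.8, 13.4 and 13.0 FPKM under control. PARS2 had 2.10, 2.03 and 1.67 FPKM under TRIM35 siRNA, against 1.70, 1.59 and 1.60 FPKM under control. FARSA and YARS1 turned to 0.043 and 0.006 without K1 control library 1. WARS1, GARS1, KARS1 and EPRS1 lay between -0.02 and 0.08 in K1 and between -0.17 and 0.00 in TPC-1.

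The effect of the siRNA did not differ detectably between lines for any synthetase. The smallest p-values belonged to VARS1 (K1 minus TPC-1 0.26, 95% interval -0.25 to 0.76), IARS1 (0.25, -0.34 to 0.83) and RARS1 (0.19, -0.27 to 0.65) among cytosolic genes, and AARS2 (-0.24, -0.66 to 0.19) and CARS2 (-0.16, -0.50 to 0.17) among mitochondrial genes. Each had an adjusted p of 1.00 by edgeR, and RARS1 lay at -0.001 without TPC-1 TRIM35 siRNA library 1.

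**Figure D4:**
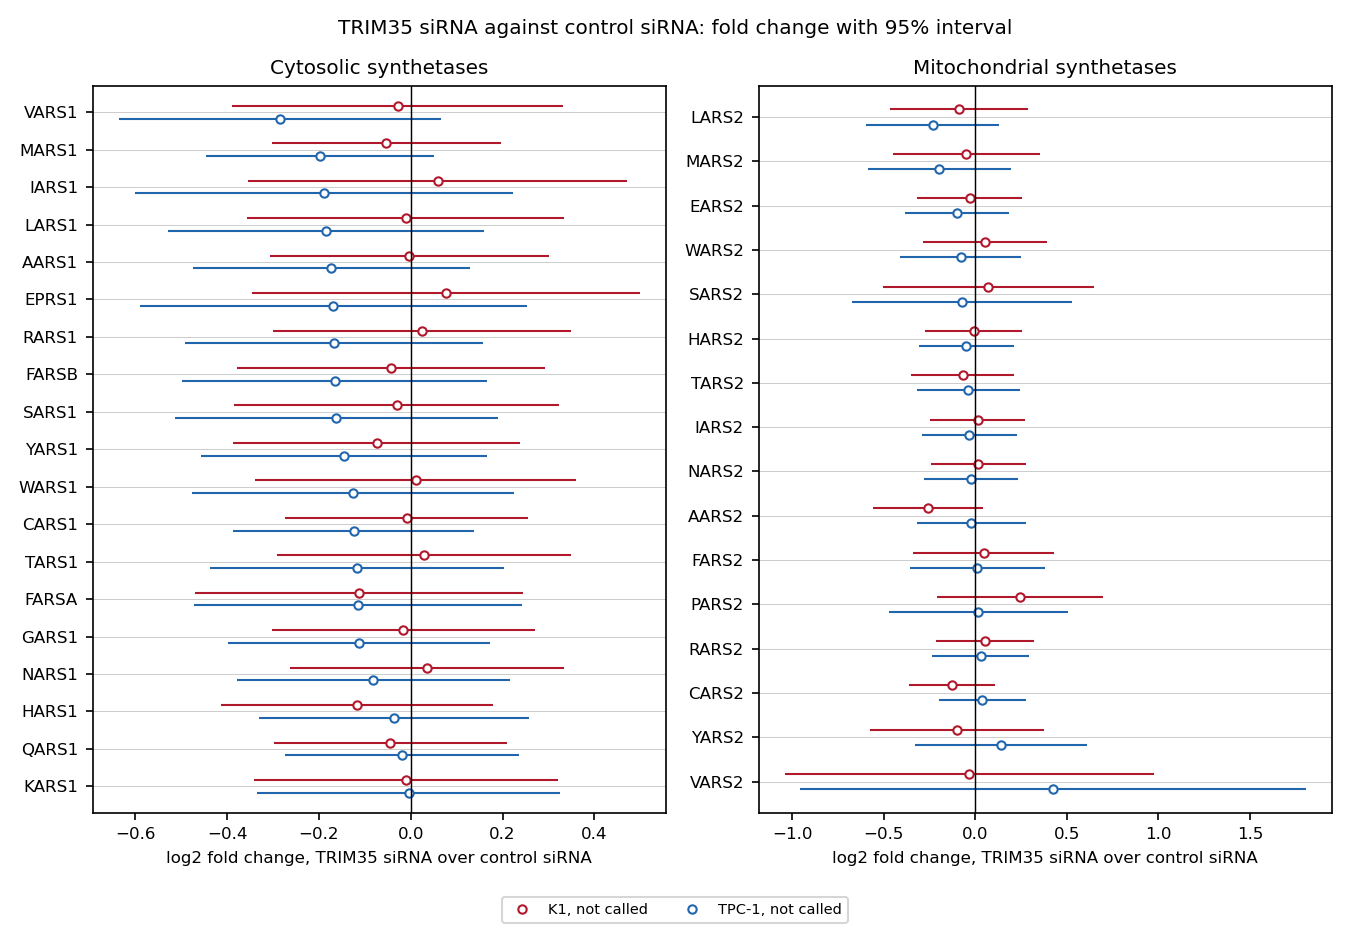
Log2 fold change of TRIM35 siRNA over control siRNA for each synthetase with 95% intervals, K1 (red, upper) and TPC-1 (blue, lower); all points are open because none was called. Every interval crosses 0; the TPC-1 cytosolic points drawn lie left of 0 or at it, and the VARS2 interval is far wider than the rest.

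Within groups, many cytosolic genes had their lowest or highest value in the same library, to an extent that depended on the scale. The same was not counted over all genes, so a pattern of the synthetases cannot be told apart from one of the whole library. On log2 CPM with TMM scaling, the scale of the edgeR fit, TPC-1 library 1 was the lowest of its group for 16 of 20 cytosolic genes under TRIM35 siRNA and for 16 under control siRNA, 14 of them in both groups, while HARS1 was highest there in both. On the deposited FPKM, which has no TMM factors and was compared after the data were seen, the counts were 14 under TRIM35 siRNA and 14 under control siRNA, with 12 in both. The mean log2 CPM of the 20 genes, relative to the TPC-1 control mean, was -0.35, -0.05 and 0.00 in TRIM35 siRNA libraries 1, 2 and 3, against -0.17, 0.10 and 0.07 in control libraries 1, 2 and 3. The cell cycle reference was likewise low in both libraries 1 (-0.25 under TRIM35 siRNA and -0.12 under control), while the ATF4 stress response was not (-0.05 and 0.04). In K1, on log2 CPM, control library 1 was the highest of its group for 18 of 20 cytosolic genes and TRIM35 siRNA library 3 for 16, while TRIM35 siRNA library 1 and control library 3 were the lowest for 14 each. On the deposited FPKM the K1 pattern was weaker: TRIM35 siRNA library 3 was the highest for 9 and also the lowest for 9, TRIM35 siRNA library 1 was the lowest for 7, control library 1 was the highest for 13 and control library 3 the lowest for 11. The K1 means of log2 CPM were -0.10, -0.07 and 0.11 in TRIM35 siRNA libraries 1, 2 and 3, against 0.11, -0.02 and -0.08 in control libraries 1, 2 and 3, relative to the K1 control mean. The same means of log2 FPKM were -0.04, -0.03 and -0.002 in the TRIM35 siRNA libraries, against 0.05, -0.02 and -0.03 in the control libraries. VARS2 had 0.38, 0.32 and 0.09 FPKM under TRIM35 siRNA, against 0.11, 0.34 and 0.36 FPKM under control, lowest in TRIM35 siRNA library 3 and in control library 1. The mitochondrial class mean stayed within -0.08 and 0.06 of its own line's control mean in all 12 libraries on log2 CPM, and within -0.12 and 0.05 on log2 FPKM.

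**Figure D5:**
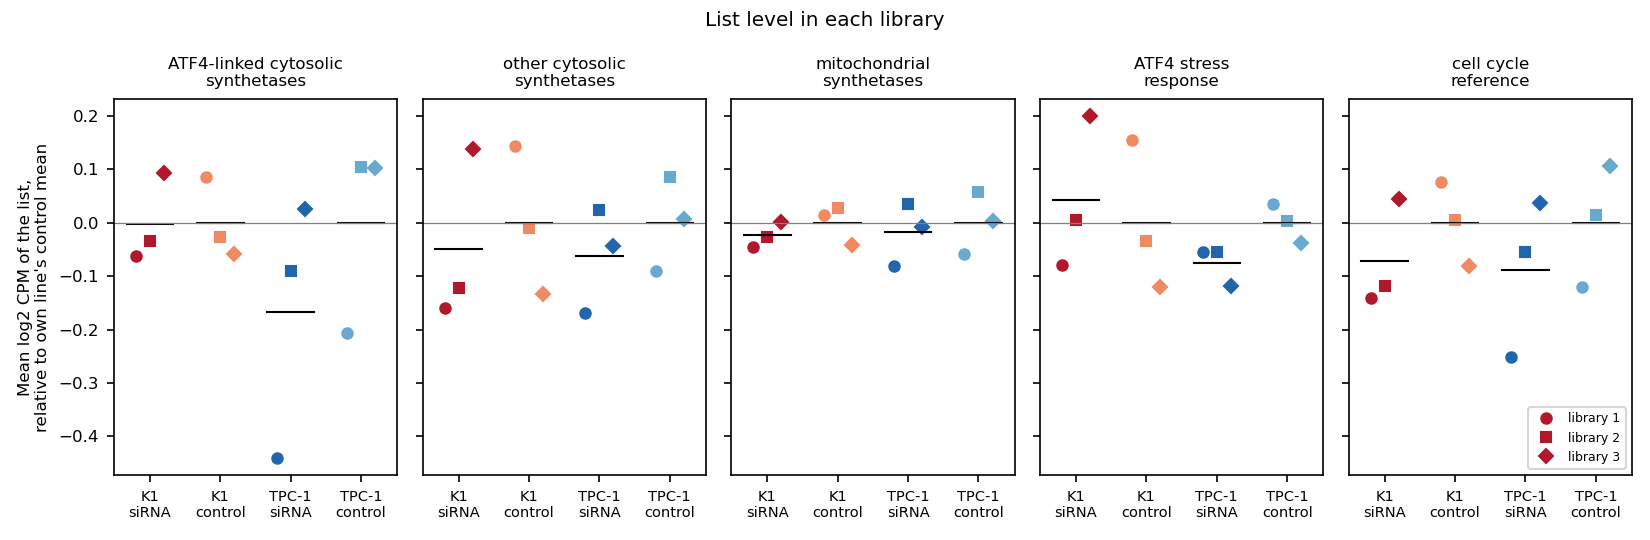
Mean log2 CPM with TMM scaling of 5 gene lists in each library, relative to the control mean of the same line, with TRIM35 siRNA left of control siRNA in each line; circles, squares and diamonds are libraries 1, 2 and 3 and the black bar is the group mean. Both TPC-1 libraries 1 are low for the ATF4-linked cytosolic synthetases, at -0.44 under TRIM35 siRNA and -0.21 under control, and the mitochondrial synthetases stay near 0.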

How the data were processed

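Per the labels, TRIzol was used to isolate total RNA and random primers to make cDNA for the 12 libraries. The submitters' processing notes name cutadapt 1.9.1 for trimming and hg38 as build; which aligner, counting tool, annotation release and strand setting were used is not given in the sources used here. In the deposited table each gene has a raw read count and an FPKM per library, and the deposited FPKM equals the count divided by the exonic gene size and the library's summed counts. The labels name 1 batch. Control library 3 of TPC-1 is titled with a different line name, while its other labels give TPC-1.

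Read counts went into edgeR 4.0.16 under R 4.3.3 (filterByExpr, TMM scaling, glmQLFit and glmQLFTest, 1 mean per group over all 12 libraries, 8 residual degrees of freedom). The 44359 genes removed held 0.0838% to 0.200% of a library's counts. Calls required an adjusted p (Benjamini-Hochberg, over all 17447 genes) below 0.05; intervals are at 95%. The comparisons were K1 against TPC-1 under each siRNA, TRIM35 siRNA against control in each line, and the difference of those effects. Values per library are given, for each class and direction, for up to 6 called members with the largest change, or for the 3 members of a class with the smallest p where none was called, and for WARS1, GARS1, KARS1 and EPRS1; of the other lists up to 4 members by adjusted p, and beside these DDIT3, GBP1, MTRF1, GATB and GATC, chosen after their values were seen. The members and lists were chosen with earlier results of these data known, so lists are described by counts and medians and have no test. TRIM35 was also compared by an exact two-sided permutation test on log2 CPM (p = 0.5 in K1, and p = 0.1 in TPC-1, the smallest that 3 against 3 libraries allow). Promoter windows came from RefSeq, and transcript lengths from GENCODE. The procedure was tested on simulated data with known changes. Those were larger than any synthetase change under TRIM35 siRNA, and were set in well-counted genes at a fixed spread without shifts shared by a library. That test therefore does not cover small siRNA effects or genes with few counts. Replicate pairs differed by more than sampling noise (chi-square per degree of freedom 3.97 to 58.9). Alternatives used other scaling, no filter, DESeq2 1.42.0, limma 3.58.1 on log2(FPKM + 0.1) and log2(FPKM + 1), only the groups compared, the replicate number as a block, and libraries left out. A pair of members enters the counts, sums and medians and is not reported individually here or drawn in the plots by gene.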

Additional observations from a re-analysis of the deposited data

How the results depend on the processing

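There were 22 alternatives, of which leaving out both TPC-1 libraries 1 was chosen after seeing the data. In every setting run, 16 cytosolic synthetases were lower in K1 under each siRNA, and 0 synthetases were called for TRIM35 siRNA in either line or for the difference. The cytosolic count called higher in K1 was 1 (QARS1) in control libraries with RLE scaling, DESeq2, both limma fits, the compared groups alone and without both K1 libraries 3, and 0 to 1 leaving out each library; under TRIM35 siRNA it was 1 with DESeq2 and both limma fits. Genes called for the siRNA numbered 2 in TPC-1 and 2 in K1 with no filter on low counts, 2 in TPC-1 with DESeq2, and for the difference 4 with no filter, 2 with DESeq2 and 0 to 1 leaving out each library.

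The K1 against TPC-1 medians moved with limma on log2(FPKM + 0.1) to -0.35 (mitochondrial, control) and -0.33 (mitochondrial, TRIM35 siRNA), and on log2(FPKM + 1) to -0.31 and -0.27, with cytosolic medians of -0.89 in control libraries and -0.76 under TRIM35 siRNA; the limma filter on low FPKM leaves out low genes. Without both TPC-1 libraries 1 they were -0.49 (mitochondrial, control), -0.51 (mitochondrial, TRIM35 siRNA) and -1.08 (cytosolic, TRIM35 siRNA). Leaving out each library gave -0.48 to -0.38, -0.50 to -0.37 and -1.07 to -0.84 for the same 3 medians. For the siRNA, the mitochondrial medians ran from -0.072 to 0.033 in TPC-1, from -0.060 to 0.020 in K1 and from -0.058 to 0.079 for the difference; they were 0.031 (TPC-1) and -0.030 (difference) without both TPC-1 libraries 1, and -0.092 (K1) and -0.037 (difference) without both K1 libraries 3, which also gave a cytosolic difference of -0.057. The cause was not tested.

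Signs turned only for genes with no call. In control libraries these were WARS1 (RLE 0.013, DESeq2 0.013, limma 0.082 and 0.076, compared groups alone 0.010, without both K1 libraries 3 0.017, leaving out each library -0.13 to 0.044), TARS2 (limma 0.010 and 0.0088), FARSA (-0.10 to 0.13; without both TPC-1 libraries 1 -0.093), SARS2 (-0.0034 to 0.38; -0.012) and YARS2 (-0.33 to 0.067; without both K1 libraries 3 0.066). Under TRIM35 siRNA they were FARSA (-0.093 to 0.15; without both K1 libraries 3 -0.013, without both TPC-1 libraries 1 -0.099), RARS1 (-0.12 to 0.16; -0.12) and WARS1 (-0.083 to 0.24; -0.089). For the siRNA effect they were EARS2 (-0.15 to 0.011; without both TPC-1 libraries 1 0.039) and MARS2 (0.012) in TPC-1, FARSA (-0.19 to 0.043) and YARS1 (-0.14 to 0.0057) in K1, and RARS1 (-0.0014 to 0.28) for the difference.

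Deviations from the group mean, over the genes tested, were correlated between control and TRIM35 siRNA libraries. Same-numbered libraries correlated at 0.38, 0.086 and 0.41 in TPC-1, each best with its own number, and at -0.49, 0.09 and -0.53 in K1. There, control library 1 correlated at 0.58 with TRIM35 siRNA library 3, and control library 3 at 0.45 with TRIM35 siRNA library 1. The labels do not say what libraries of the same number share. With the replicate number as a block, the siRNA effect still gave 0 calls (cytosolic median -0.14 in TPC-1 and -0.01 in K1), and in the control libraries PARS2 was no longer called (0.57).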
